A study of Homo sapiens with 6 samples.

Results

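The 10 genes described here are ligands, receptors, an inhibitor and a target of transforming growth factor beta (TGF-beta) signalling. They were taken by gene symbol from a table of 35856 genes, and all 10 were present: the ligands TGFB1, TGFB2, TGFB3, INHBA and BMP4, the receptors TGFBR1, TGFBR2 and TGFBR3, the inhibitor SMAD7 and the target gene TGFBI. RNA was sequenced from HCCLM3, a human hepatocellular carcinoma line derived for its high rate of metastasis. The 3 LINC00862 libraries came from cells transfected with the long non-coding RNA LINC00862 on the expression vector pcDNA3.1. The 3 control libraries are called Empty here, and the sample labels call them NC. The paper names an empty vector as the control in its animal work, which is taken here to hold for the sequenced cells. The comparison asks which RNAs change when LINC00862 is overexpressed. Whether the libraries of a group came from separate cultures or transfections was not given in the sources used here, so the p-values measure the spread between these libraries, which may be technical.

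TGF-beta ligands are secreted in a latent form, held by their own propeptide and by binding proteins of the matrix, and act once released. The active ligand binds the type II receptor TGFBR2, which recruits and phosphorylates the type I receptor TGFBR1, and TGFBR1 then phosphorylates SMAD2 and SMAD3, which enter the nucleus with SMAD4. TGFBR3, or betaglycan, presents ligand, TGFB2 above all, to the signalling receptors. SMAD7 is induced by the pathway and blocks TGFBR1, which closes a feedback loop. In hepatocytes the pathway is known for growth arrest and cell death, and in carcinoma cells for a shift towards a mesenchymal form and for matrix production. INHBA encodes the subunit of activin A, and BMP4 is a bone morphogenetic protein, so these ligands use other receptors of the same family.

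The promoters of the 3 TGF-beta ligands are shown because the ligands share receptors while their RNA levels differed from each other in the comparison. All 10 members had an entry in the RefSeq table of start sites (GRCh38.p14), and in 6 of them the RefSeq start was also the 5′ end of the deposited gene model. The 250 bases before the start are given 5′ to 3′ on the gene's strand: chr19:41353923-41354172 on the minus strand for TGFB1, chr1:218345086-218345335 on the plus strand for TGFB2 and chr14:75981996-75982245 on the minus strand for TGFB3. Capitals mark exact matches, on either strand, to the TATA box letters TATAAA, the GC box GGGCGG and the cyclic AMP response core TGACGT, and no match overlapped another.
TGFB1: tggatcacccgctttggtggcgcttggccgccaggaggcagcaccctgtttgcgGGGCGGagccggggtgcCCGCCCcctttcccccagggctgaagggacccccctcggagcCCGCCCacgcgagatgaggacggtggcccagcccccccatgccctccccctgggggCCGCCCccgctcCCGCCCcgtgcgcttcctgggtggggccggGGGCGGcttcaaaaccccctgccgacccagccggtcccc
TGFB2: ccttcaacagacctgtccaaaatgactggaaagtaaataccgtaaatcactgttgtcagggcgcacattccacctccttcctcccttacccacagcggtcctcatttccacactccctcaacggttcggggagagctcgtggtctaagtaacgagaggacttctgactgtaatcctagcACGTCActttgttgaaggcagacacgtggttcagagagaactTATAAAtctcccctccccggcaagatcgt
TGFB3: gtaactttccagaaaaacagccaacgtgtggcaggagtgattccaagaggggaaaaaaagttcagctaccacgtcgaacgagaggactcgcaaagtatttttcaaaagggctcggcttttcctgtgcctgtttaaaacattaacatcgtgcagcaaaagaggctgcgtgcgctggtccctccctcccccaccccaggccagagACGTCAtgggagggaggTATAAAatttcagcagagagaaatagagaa
The TGFB1 window had 6 GC boxes, no TATAAA and a GC content of 76.8%. The TGFB2 window had TATAAA 29 to 24 bases before the start, TGACGT on the opposite strand and a GC content of 50.4%. The TGFB3 window likewise had TATAAA, 30 to 25 bases before the start, with TGACGT on the opposite strand and a GC content of 49.2%. Of 35116 promoters of this length, 42.6% held GGGCGG, 10.7% held TATAAA and 7.1% held TGACGT. The SMAD-binding letters CAGAC, left in lower case and found in 38% of the promoters, occurred 2 times before TGFB2 and had no match before TGFB1 or TGFB3, and the palindrome GTCTAGAC (0.182% of promoters) had none in the 3 windows. These matches are descriptions of letters and not of bound sites.

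The libraries held 58241123 to 68229070 counts, and the 10 most abundant genes took 8.42 to 11.7% of them in Empty and 19.4 to 29.2% in LINC00862. LINC00862 itself, the overexpressed gene, had 11, 21 and 6 counts in Empty and 145, 121 and 76 in LINC00862. The direction fitted the label in each library (log2 fold change 3.22, SE 0.53, edgeR adjusted p = 0.000583). The gene passed the filter on low counts only through the LINC00862 libraries, so it could be called higher or not at all. The level stayed low, with means of 0.0507 FPKM (fragments scaled to transcript length and library size) in Empty and 0.449 FPKM in LINC00862. It was the 3010th largest rise among the tested genes. The groups stood far apart as a whole: 13321 of 20741 tested genes passed edgeR's quasi-likelihood test at a false discovery rate of 0.05, with 34.4% higher and 29.8% lower in LINC00862, and the median log2 fold change was 0.11. The labelled cell type was checked against 15 hepatocyte and hepatoma markers, of which 12 were tested, 9 higher and 3 lower in LINC00862. Their summed level was 6.21 to 6.70 FPKM in Empty and 1270 to 1510 FPKM in LINC00862. In every Empty library APOA2, TTR and GPC3 were at 0 and 9 of the 15 markers were under 0.1 FPKM, while AFP was at 0 in the LINC00862 libraries. A marker at 0 in all libraries of 1 group could be called in 1 direction or not at all. Of 14 epithelial markers, 11 were higher in LINC00862 and 1 was lower, and the summed level was 202 to 295 FPKM in Empty and 593 to 728 FPKM in LINC00862. Of 12 fibroblast and stellate markers, 3 were higher and 4 lower, with a summed level of 47.7 to 58.8 FPKM in Empty and 13.2 to 17.0 FPKM in LINC00862. Because these markers and the group moved together, an effect of LINC00862 cannot be told apart from one of cells that differed before transfection, and in bulk RNA neither can fewer cells of a type and less RNA per cell.

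Of the 10 members, 7 were lower in LINC00862 and 0 were higher, where 29.8% of all tested genes were lower and 34.4% higher (64.2% in either direction). TGFB1, TGFB2, BMP4, TGFBR1, TGFBR2, TGFBR3 and TGFBI fell, with log2 fold changes from -1.61 to -5.99, and TGFB3, INHBA and SMAD7 did not pass the test. No member was higher at an unadjusted p under 0.05 or by DESeq2 either. The median log2 fold change of the members was -2.30, beside 0.11 for all tested genes. The FPKM of the groups did not overlap for 8 of 10 members, INHBA and SMAD7 being the exceptions, beside 71.1% of all tested genes. The lowest count of any member in any library was 17 and the highest was 56629. With 3 libraries a group, the exact two-sided permutation test of a single gene cannot go below p = 0.1, so the calls rest on edgeR's fit across all genes.

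**Figure D1:**
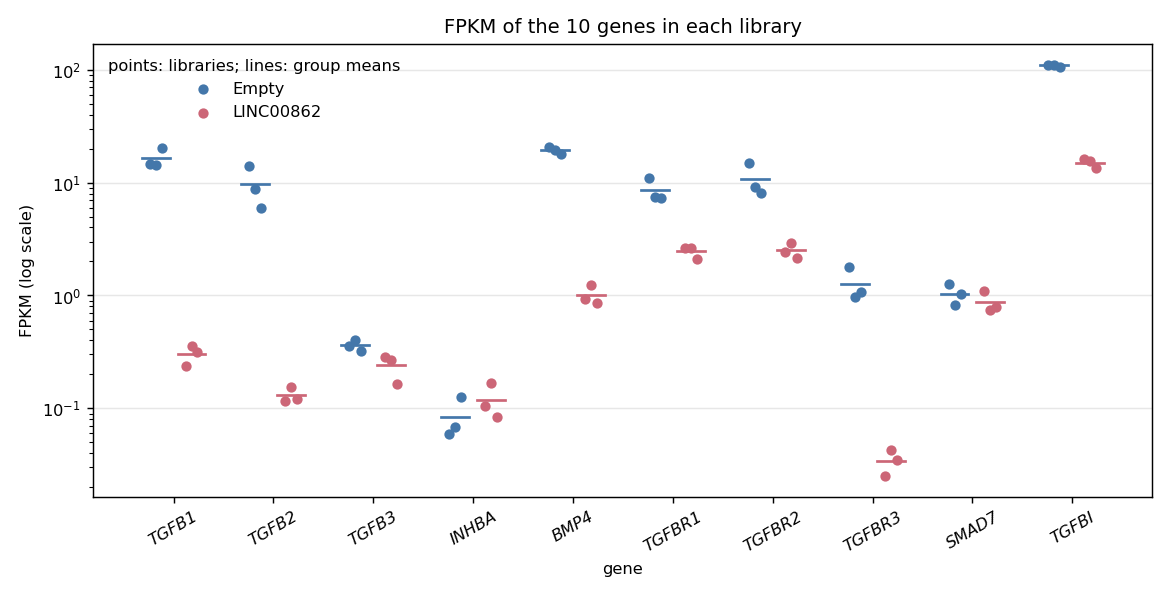
FPKM of each of the 10 genes in the 3 Empty and the 3 LINC00862 libraries on a log scale, 1 point per library, with a bar at the group mean. The groups are apart by over 10-fold for TGFB1, TGFB2, BMP4 and TGFBR3, while the points of INHBA and SMAD7 overlap.

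TGFB1, the most widely expressed ligand of the family, lies on chromosome 19 from 41301587 to 41353922 on the minus strand (hg38). Its level was 14.7, 14.3 and 20.1 FPKM in Empty and 0.239, 0.355 and 0.316 FPKM in LINC00862. All Empty libraries were high and all LINC00862 libraries low, with no overlap. The means were 16.4 ± 3.20 and 0.303 ± 0.059 FPKM (SD, n = 3 each), a ratio of 54.0. In edgeR's fit TGFB1 fell by 5.56 on the log2 scale (SE 0.26, 95% interval -6.14 to -4.97, adjusted p = 2.98e-07), the 455th largest fall among the tested genes. The LINC00862 libraries held 61, 77 and 71 counts of it, and the Empty libraries 3169, 3042 and 4350.

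TGFB2, the ligand that depends most on TGFBR3, had the lowest log2 fold change of the 10 genes, with an interval that overlapped that of TGFB1. The gene lies on chromosome 1 from 218345336 to 218444619 on the plus strand. It was measured at 14.1, 8.86 and 5.97 FPKM in Empty and 0.116, 0.154 and 0.120 FPKM in LINC00862. The Empty libraries spread more for TGFB2 than for TGFB1, with replicate 1 highest, but none came near the LINC00862 range. TGFB2 fell by 5.99 on the log2 scale (SE 0.32, 95% interval -6.72 to -5.27, edgeR adjusted p = 6.36e-07), from 9.65 ± 4.14 to 0.130 ± 0.021 FPKM (SD, n = 3 each).

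TGFB3, the third ligand for the same receptors, was low in both groups. Its level was 0.358, 0.407 and 0.321 FPKM in Empty and 0.288, 0.266 and 0.166 FPKM in LINC00862. The ranges did not overlap, but they lay close, with a ratio of means of 1.51. The log2 fold change was -0.43 (SE 0.32, 95% interval -1.17 to 0.31) and did not pass the test (edgeR adjusted p = 0.275). The gene lies on chromosome 14 from 75958097 to 75981995 on the minus strand.

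The make-up of the TGF-beta ligand RNA therefore differed between the groups along with its amount. The summed FPKM of TGFB1, TGFB2 and TGFB3 was 29.2, 23.6 and 26.3 in Empty and 0.642, 0.776 and 0.602 in LINC00862, a 39.2-fold ratio of the means. TGFB3 made up 1.23, 1.72 and 1.22% of the sum in Empty and 44.8, 34.3 and 27.6% in LINC00862. The share of TGFB3 was thus higher in every LINC00862 library (1.39 ± 0.29% and 35.6 ± 8.64%, SD, n = 3 each, exact two-sided permutation p = 0.1, the smallest this design allows), while its own level was lower in each of them. TGFB2 made up 48.4, 37.5 and 22.7% in Empty and 18.0, 19.9 and 19.9% in LINC00862, with no overlap (exact permutation p = 0.1). TGFB1 made up 50.4, 60.7 and 76.1% in Empty and 37.2, 45.8 and 52.4% in LINC00862, where the ranges overlapped (exact permutation p = 0.2).

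BMP4, a ligand of the bone morphogenetic protein branch, had the highest mean FPKM of the 5 ligands in Empty, where its range overlapped that of TGFB1. The gene lies on chromosome 14 from 53949736 to 53958761 on the minus strand. Its level was 20.7, 19.5 and 17.8 FPKM in Empty and 0.922, 1.25 and 0.866 FPKM in LINC00862. The libraries of each group lay close together, and the groups were far apart. BMP4 fell by 4.08 on the log2 scale (SE 0.17, 95% interval -4.47 to -3.68, edgeR adjusted p = 1.85e-07), and the ratio of the means was 19.1.

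INHBA, the gene of the activin A subunit, was near the lower limit of measurement in both groups. It lies on chromosome 7 from 41667168 to 41705335 on the minus strand. Its level was 0.0597, 0.0678 and 0.125 FPKM in Empty and 0.104, 0.167 and 0.0831 FPKM in LINC00862, from 34 to 92 counts a library. The groups overlapped, with Empty replicate 3 above 2 of the LINC00862 libraries. The log2 fold change was 0.62 (SE 0.46, 95% interval -0.41 to 1.66, edgeR adjusted p = 0.261), so a change in either direction was not detectable at this depth and spread.

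The type I and type II receptors were lower in LINC00862, and their intervals did not reach those of the ligands TGFB1 and TGFB2. TGFBR1, the kinase that phosphorylates SMAD2 and SMAD3, lies on chromosome 9 from 99104038 to 99154192 on the plus strand. It was measured at 10.9, 7.52 and 7.32 FPKM in Empty and 2.66, 2.63 and 2.12 FPKM in LINC00862. No LINC00862 library reached the lowest Empty library, and TGFBR1 fell by 1.61 on the log2 scale (SE 0.16, 95% interval -1.98 to -1.24, edgeR adjusted p = 3.07e-05). TGFBR2, the receptor that binds the ligand first, lies on chromosome 3 from 30606601 to 30694142 on the plus strand. It was measured at 14.9, 9.14 and 8.15 FPKM in Empty and 2.45, 2.94 and 2.13 FPKM in LINC00862. Again the groups were apart and Empty replicate 1 was highest, and TGFBR2 fell by 1.91 on the log2 scale (SE 0.21, 95% interval -2.38 to -1.44, edgeR adjusted p = 4.88e-05). Both receptors kept a level of over 2 FPKM in each LINC00862 library, where the 3 ligands together were below 1 FPKM. The ratio of TGFBR2 to TGFBR1 was 1.37, 1.22 and 1.11 in Empty and 0.921, 1.12 and 1.00 in LINC00862, which overlapped (exact permutation p = 0.2).

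TGFBR3, the co-receptor betaglycan, had an interval that lay below those of both signalling receptors. The gene lies on chromosome 1 from 91680343 to 91886151 on the minus strand. Its level was 1.78, 0.977 and 1.07 FPKM in Empty and 0.0251, 0.0425 and 0.0348 FPKM in LINC00862, the latter from 17, 25 and 21 counts. The groups did not overlap, and the ratio of the means was 37.4. TGFBR3 fell by 4.97 on the log2 scale (SE 0.34, 95% interval -5.75 to -4.20, edgeR adjusted p = 2.93e-06). Relative to TGFBR2 it stood at 0.120, 0.107 and 0.131 in Empty and at 0.0102, 0.0145 and 0.0164 in LINC00862 (exact permutation p = 0.1, the smallest possible). The ligand that betaglycan mainly presents, TGFB2, and betaglycan itself were thus both low in all 3 LINC00862 libraries.

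SMAD7, the inhibitor that the pathway induces against itself, did not pass the test. It lies on chromosome 18 from 48919853 to 48952052 on the minus strand. Its level was 1.26, 0.829 and 1.02 FPKM in Empty and 1.09, 0.749 and 0.783 FPKM in LINC00862. The groups overlapped, and the difference was smaller than the spread within either group. The log2 fold change was -0.06 (SE 0.25, 95% interval -0.64 to 0.51, edgeR adjusted p = 0.843), with a sign that turned to 0.15 under upper-quartile scaling. The interval leaves room for a change of up to 0.64 on the log2 scale downwards, and the p does not show that the levels were equal. The genes whose profile over the 6 libraries lay closest to that of SMAD7 were AC010463, AL008721 and AC127024, with a mean absolute difference of 0.0740, 0.0804 and 0.0822 between centred log2 CPM.

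TGFBI, a secreted matrix protein named for its induction by TGF-beta, was the most abundant of the 10 genes in both groups. It lies on chromosome 5 from 136028988 to 136063818 on the plus strand. Its level was 111, 111 and 105 FPKM in Empty and 16.1, 15.6 and 13.4 FPKM in LINC00862. The libraries of each group were close, with no overlap between groups. TGFBI fell by 2.69 on the log2 scale (SE 0.15, 95% interval -3.02 to -2.36, edgeR adjusted p = 6.82e-07), from 109 ± 3.31 to 15.0 ± 1.41 FPKM (SD, n = 3 each).

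**Figure D2:**
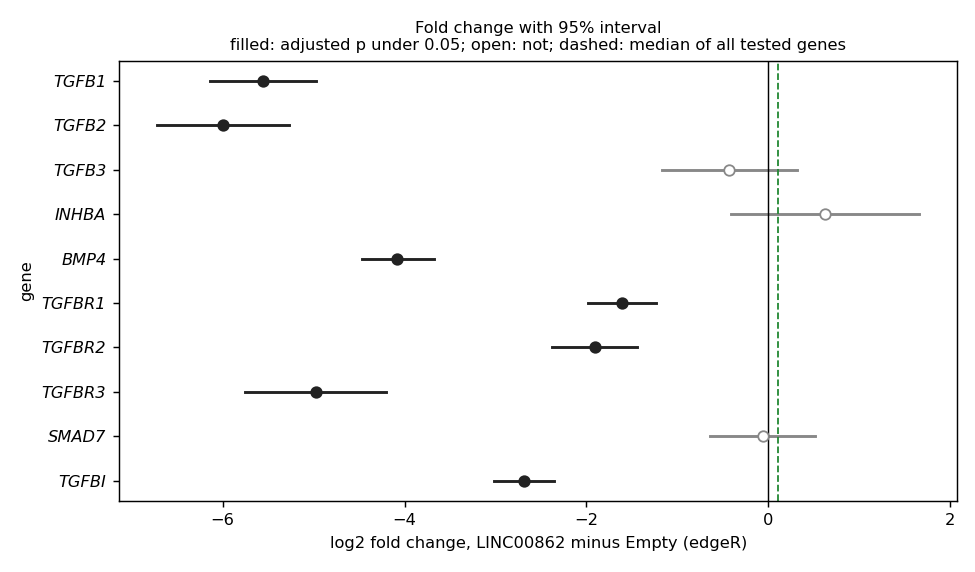
Log2 fold change of LINC00862 against Empty for the 10 genes, with the 95% interval from edgeR's fit as bars. The intervals of TGFB3, INHBA and SMAD7 include 0, and those of the other 7 lie below it, with TGFB2 lowest at -5.99.

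The order of the levels, compared per transcript length in FPKM, differed between the groups. In Empty, TGFBI stood above all others, and BMP4, TGFB1, TGFBR2, TGFB2 and TGFBR1 followed, each overlapping the next in the order. TGFBR3 and SMAD7 came next and overlapped, and TGFB3 and INHBA were lowest. In LINC00862, TGFBI was again highest, and TGFBR2 and TGFBR1 followed and overlapped. BMP4 and SMAD7 overlapped below them, then TGFB1 and TGFB3, then TGFB2 and INHBA, and TGFBR3 was lowest. SMAD7 thus stood below TGFB1 and TGFB2 in Empty and above both in LINC00862, while its own levels in the groups overlapped.

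Some counts of the members can hold reads of overlapping genes, since the library kit marks strand but whether the counting used it was not given in the sources used here. AC011462 (ENSG00000286177), on the strand of TGFB1, had 191, 80 and 181 counts in Empty and 9, 0 and 15 in LINC00862, a small part of the TGFB1 counts in Empty. HNRNPUL1, opposite TGFB1, had 15006 to 21231 counts in Empty and 9142 to 12310 in LINC00862, far above the 61 to 77 counts of TGFB1 there. IFT43, opposite TGFB3, had 659 to 1400 counts in Empty and 787 to 871 in LINC00862, above TGFB3 in every library. TGFB2-OT1, on the strand of TGFB2, had 25, 29 and 462 counts in Empty and 4, 2 and 13 in LINC00862, so it stood out in Empty replicate 3, where TGFB2 was lowest. AL138479, opposite BMP4, had 117, 78 and 44 counts in Empty and 9, 0 and 0 in LINC00862. INHBA-AS1, opposite INHBA, had 0 counts in the Empty libraries and 25, 23 and 3 in LINC00862. For TGFBR2, TGFBR3, TGFBI and SMAD7 the table held no overlapping gene.

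The rest of the pathway was described by 8 lists of other genes, of which 158 were tested: 39 were higher in LINC00862, 79 were lower and 40 did not pass the test, with a median log2 fold change of -0.67. Over all tested genes 34.4% were higher and 29.8% lower. The lists share 7 tested genes, FN1, THBS1, LTBP2, TGM2, SMAD6, SMAD9 and BAMBI, which are counted once among the 158 and in each list they belong to. Values for these genes are means ± SD of the 3 libraries of a group. Among 28 genes that hold ligand latent or release it, 16 fell and 5 rose (median log2 fold change -1.24). The 5 higher became 3 without Empty replicate 2, Empty replicate 3, LINC00862 replicate 1 or LINC00862 replicate 2. THBS1, a matrix protein that activates latent TGF-beta, fell from 63.0 ± 21.3 to 2.46 ± 0.344 FPKM (log2 fold change -4.49, SE 0.24, edgeR adjusted p = 6.02e-07). FN1, the fibronectin to which latent complexes attach, fell from 39.2 ± 14.0 to 1.20 ± 0.161 FPKM (log2 fold change -4.83). PLAU, the urokinase protease, fell from 67.8 ± 3.06 to 0.472 ± 0.166 FPKM (log2 fold change -7.00), and ITGB1, an integrin subunit, from 140 ± 43.7 to 44.0 ± 4.96 FPKM (log2 fold change -1.48). Of the latent binding proteins, chosen after their values were seen, LTBP1 rose from 0.246 ± 0.0569 to 1.72 ± 0.124 FPKM (log2 fold change 2.99), while LTBP2, LTBP3 and LTBP4 fell with log2 fold changes of -1.33, -1.47 and -0.89. ITGB6, the subunit of the integrin that releases TGF-beta in epithelia, was also chosen after its value was seen. It was at 0.00347 ± 0.00601 FPKM in Empty (4, 0 and 0 counts) and 0.972 ± 0.0467 FPKM in LINC00862 (408, 386 and 384 counts). ITGB6 passed the filter on low counts only through the LINC00862 libraries, so it could be called higher or not at all. The same holds for PCSK6 and MFAP5, also among the 5 higher, with 33, 20 and 0 and with 9, 0 and 0 counts in Empty. THBS2, among the 16 lower, had 2, 0 and 0 counts in LINC00862 and could be called lower or not at all. These genes were named after their counts were seen.

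On the list of 17 other ligands of the family, which also held the protease BMP1, 11 genes rose and 4 fell (median log2 fold change 1.53), beside 34.4% and 29.8% of all tested genes. Many of these genes were near the floor. Of the 25 listed genes that were present, 14 were under 0.1 FPKM in each Empty library and 10 in each LINC00862 library. The genes that fell were AMH, BMP1 and, named after their values were seen, GDF6 and GDF11. GDF15, a stress-induced ligand of this family that signals through a receptor outside it, rose from 6.37 ± 0.176 to 704 ± 39.0 FPKM (log2 fold change 6.96, SE 0.19, edgeR adjusted p = 2.9e-08). BMP2, a relative of BMP4, rose from 0.0549 ± 0.0397 to 4.01 ± 0.343 FPKM (log2 fold change 6.28, SE 0.49). BMP4 fell and BMP2 rose, and in LINC00862 the mean level of BMP2 was above that of BMP4. In Empty, BMP2 had 4, 14 and 22 counts. Named after their counts were seen, INHBC had 0, 4 and 4 counts there, INHBE 18, 20 and 7, GDF9 22, 22 and 7, and NODAL 8, 11 and 9. All of these passed the filter on low counts only through the LINC00862 libraries, so they could be called higher or not at all. The count of 11 higher is thus partly set by the filter. BMP1, which matures matrix proteins and is no ligand despite its name, fell from 14.6 ± 0.545 to 2.41 ± 0.175 FPKM (log2 fold change -2.41). AMH, the anti-Müllerian hormone, fell from 7.07 ± 1.75 to 1.98 ± 0.524 FPKM (log2 fold change -1.66).

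Among 11 other receptors, 3 rose and 4 fell, shares near the 34.4% and 29.8% of all tested genes, and the median, a log2 fold change of 0.04, turned to -0.13 when libraries were scaled by total count alone. Among those that rose, named after their counts were seen, ACVR1C had 4, 0 and 0 counts in Empty and BMPR1B had 39, 8 and 38. They passed the filter on low counts only through the LINC00862 libraries, so they could be called higher or not at all. ENG, or endoglin, a co-receptor related to TGFBR3, fell from 17.5 ± 2.28 to 0.802 ± 0.251 FPKM (log2 fold change -4.26, SE 0.28, edgeR adjusted p = 2.32e-06). RGMB, a co-receptor for bone morphogenetic proteins, fell from 39.7 ± 7.22 to 4.77 ± 0.157 FPKM (log2 fold change -2.87). ACVR1B, a type I receptor for activin, rose from 3.17 ± 1.07 to 6.32 ± 0.951 FPKM (log2 fold change 1.18), and ACVR1 was at 5.16 ± 0.782 and 3.86 ± 0.229 FPKM without passing the test (edgeR adjusted p = 0.189). Of 16 SMAD transducers and their partners, 6 fell, 1 rose and 9 did not pass (median log2 fold change -0.33). The gene that rose, named after its value was seen, was TRAF6, a ubiquitin ligase upstream of TAK1 (log2 fold change 0.57). The count of 1 higher became 2 without Empty replicate 1 and 0 without any 1 of the other 5 libraries. SMAD3, which TGFBR1 activates, fell from 12.6 ± 3.08 to 5.78 ± 0.295 FPKM (log2 fold change -0.93), and TAB2, an adaptor of the kinase TAK1, from 13.8 ± 4.49 to 2.68 ± 0.181 FPKM (log2 fold change -2.17). SMAD5, a transducer of bone morphogenetic proteins, fell from 7.66 ± 3.01 to 4.16 ± 0.298 FPKM (log2 fold change -0.68), and HGS, an endosomal sorting protein, from 23.0 ± 1.92 to 8.63 ± 0.628 FPKM (log2 fold change -1.24). SMAD4, the common partner, chosen after its value was seen, fell from 4.66 ± 1.12 to 2.23 ± 0.369 FPKM (log2 fold change -0.88), and SMAD2, likewise chosen, was at 2.43 ± 0.470 and 1.77 ± 0.144 FPKM (edgeR adjusted p = 0.123).

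Among 24 other intracellular inhibitors, the list closest in role to SMAD7, 8 rose, 8 fell and 8 did not pass, shares near those of all tested genes (34.4% higher, 29.8% lower). The median log2 fold change was 0.17, and -0.00 when scaled by total count alone. FKBP1A, which keeps TGFBR1 inactive, fell from 150 ± 7.06 to 37.6 ± 1.19 FPKM (log2 fold change -1.82, SE 0.14, edgeR adjusted p = 6.79e-06). TOB1, an antiproliferative protein, rose from 21.5 ± 1.95 to 41.3 ± 3.54 FPKM (log2 fold change 1.13, edgeR adjusted p = 0.000154). PPP1R15A, a phosphatase subunit, was at 48.6 ± 5.05 and 56.3 ± 3.23 FPKM (log2 fold change 0.38). It passed narrowly (edgeR adjusted p = 0.0432), and the FPKM of the groups overlapped. STRAP, a partner of SMAD7 at the receptor, was at 65.1 ± 3.85 and 56.1 ± 2.76 FPKM and did not pass (edgeR adjusted p = 0.799). Several genes known as feedback partners of SMAD7 were looked at after their values were seen. SMAD6, the inhibitory SMAD of the bone morphogenetic protein branch, rose from 0.748 ± 0.0916 to 1.56 ± 0.0569 FPKM (log2 fold change 1.24), whereas SKIL and PMEPA1, both induced by TGF-beta, had log2 fold changes of 0.35 and 0.39 and did not pass the test (edgeR adjusted p = 0.129 and 0.14). SMURF1 and SMURF2 are among the ubiquitin ligases that SMAD7 brings to the receptor. SMURF1 rose from 5.26 ± 1.13 to 8.85 ± 1.21 FPKM and SMURF2 fell from 13.2 ± 2.92 to 0.838 ± 0.0499 FPKM (log2 fold changes 0.93 and -3.78). Of other ubiquitin ligases on this list, WWP1 rose and NEDD4L fell (log2 fold changes 1.7 and -1.48), and WWP2 did not pass (edgeR adjusted p = 0.213).

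Outside the cell, 10 of 15 antagonists fell and 3 rose (median log2 fold change -4.82), beside 29.8% and 34.4% of all tested genes. Those that rose included, named after their values were seen, CHRDL2, a chordin-like protein that binds bone morphogenetic proteins, from 0.176 ± 0.0807 to 6.24 ± 0.564 FPKM, and FST, or follistatin, with a log2 fold change of 0.51. The 3 higher became 1 without Empty replicate 2, LINC00862 replicate 1 or LINC00862 replicate 3. FSTL1, a secreted glycoprotein of the follistatin family, fell from 93.0 ± 24.3 to 0.458 ± 0.0169 FPKM (log2 fold change -7.46, SE 0.23, edgeR adjusted p = 3.83e-08). FSTL3, which binds activin, fell from 36.5 ± 5.29 to 1.15 ± 0.148 FPKM (log2 fold change -4.82). HTRA1, a secreted protease, fell from 36.6 ± 3.95 to 0.375 ± 0.0648 FPKM (log2 fold change -6.41), and NBL1, which binds bone morphogenetic proteins, from 24.5 ± 6.10 to 0.281 ± 0.00932 FPKM (log2 fold change -6.26). NOG, or noggin, the antagonist that binds BMP4, was chosen after its value was seen and fell from 16.5 ± 2.83 to 0.0130 ± 0.0131 FPKM (log2 fold change -9.86, edgeR adjusted p = 3.28e-07). Ligand and antagonist, BMP4 and NOG, were thus both high in Empty and low in LINC00862.

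Of 41 listed target genes of TGF-beta, 31 fell, 4 rose and 6 did not pass the test. FN1, THBS1, LTBP2 and TGM2 of the latent complex list were among the 31. So was POSTN, named after its counts were seen, with 0 counts in each LINC00862 library. POSTN could be called lower or not at all. Of all tested genes, 29.8% fell and 34.4% rose. The target list had a median log2 fold change of -3.00, close to the -2.69 of TGFBI and beside 0.11 for all tested genes. VIM, the intermediate filament of mesenchymal cells, fell from 539 ± 50.1 to 3.77 ± 0.102 FPKM (log2 fold change -6.99, SE 0.22, edgeR adjusted p = 4.69e-08). CCN1 and CCN2, secreted matricellular proteins, fell from 348 ± 8.48 to 4.32 ± 0.107 FPKM and from 170 ± 13.6 to 7.65 ± 0.134 FPKM (log2 fold changes -6.16 and -4.30). CDKN1A, the cell-cycle inhibitor p21, was at 55.5 ± 4.55 and 50.2 ± 13.6 FPKM and did not pass (edgeR adjusted p = 0.945). The 4 targets that rose, named after their values were seen, were COL1A1 (2.43 ± 0.199 to 10.6 ± 2.45 FPKM), JUNB (17.8 ± 2.29 to 41.2 ± 2.37 FPKM), PTHLH and NEDD9. Many of these targets, VIM among them, also mark mesenchymal cells, and the epithelial and hepatocyte markers moved the opposite way in the same libraries. Their part in the result was not tested.

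**Figure D3:**
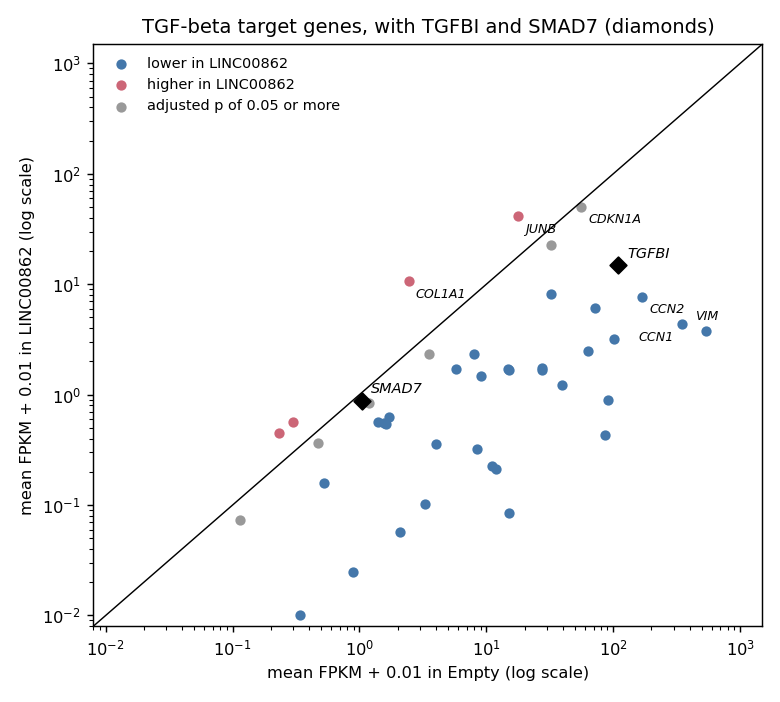
Mean FPKM + 0.01 in LINC00862 against Empty on log scales for the TGF-beta target genes, 1 point per gene coloured by its call, with TGFBI and SMAD7 as diamonds and the line of equal levels. Most targets lie below the line, TGFBI among them, and SMAD7 lies close to it.

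Of 13 targets of bone morphogenetic proteins, 6 were higher and 4 lower (median log2 fold change 0.35), beside 34.4% and 29.8% of all tested genes. The 4 lower became 2 without Empty replicate 3, LINC00862 replicate 1 or LINC00862 replicate 2. Among the 6 higher, named after their counts were seen, MSX1 had 0, 0 and 0 counts in Empty and ID4 had 6, 8 and 4. They passed the filter on low counts only through the LINC00862 libraries, so they could be called higher or not at all. ID2, an inhibitor of differentiation, rose from 2.10 ± 0.213 to 24.4 ± 3.11 FPKM (log2 fold change 3.71, SE 0.18, edgeR adjusted p = 4.32e-07). ID1 and ID3, its relatives, fell from 35.2 ± 9.09 to 20.0 ± 1.95 FPKM and from 50.1 ± 5.71 to 15.4 ± 0.738 FPKM (log2 fold changes -0.65 and -1.54). BAMBI, a decoy receptor that is itself a target, rose from 3.65 ± 0.586 to 8.55 ± 0.535 FPKM (log2 fold change 1.39).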

How the data were processed

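RNA of HCCLM3 cells, captured on oligo(dT) beads from total RNA, was sequenced in 3 Empty and 3 LINC00862 libraries. The authors deposited 1 table of 35856 genes with the count of reads per gene, not normalized, and with FPKM, which the authors scaled by transcript length and by mapped fragments. The submitters' processing notes name cutadapt 1.9, HISAT2 2.0.4, UMI-tools, StringTie 1.3.4d, DESeq2, edgeR and hg38. Whether counts were deduplicated or used strand was not given in the sources used here. The SE and intervals rest on the spread between libraries as well as on counting error.

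Groups and replicate numbers came from the labels, and columns were matched to samples by name. The study's methods give a q threshold without naming its test. Counts were fitted with edgeR 4.0.16 in R 4.3.3 (filterByExpr, TMM, quasi-likelihood test, two-sided, Benjamini-Hochberg adjustment over 20741 genes, threshold 0.05), and the script was tested on simulated data. The SE is the absolute log2 fold change divided by the square root of F. Levels are the deposited FPKM, as mean ± SD. Members and lists were chosen with earlier results of these data known. The text names the 10 members, the 4 tested genes of highest mean FPKM in each pathway list, overlapping neighbours, the 3 profiles nearest SMAD7, and exceptions as stated. Alternatives were DESeq2 1.42.0, upper-quartile and library-size scaling, no filter, a replicate block, limma 3.58.1 on log2(FPKM + 1) and log2(FPKM + 0.1), a threshold of 0.01 and leaving out each library. Promoter sequence is from RefSeq, GRCh38.p14, and no protein sequence was used here.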

Additional observations from a re-analysis of the deposited data

How the results depend on the processing

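The count of members called, 7 lower and 0 higher, was the same in each of the 13 alternative fits and at a threshold of 0.01. Of 130 member fold changes refitted, 127 kept their direction and side of the threshold. The exceptions were all of SMAD7, which was called in no fit: its log2 fold change was 0.15 with upper-quartile scaling, 0.04 without Empty replicate 1 and 0.06 without LINC00862 replicate 2, and leaving out 1 library at a time gave -0.23 to 0.06. The adjusted p over the alternatives ranged from 0.413 to 0.938 for SMAD7, from 0.0662 to 0.573 for TGFB3 and from 0.07 to 0.606 for INHBA. On the log2(FPKM + 1) scale, whose pseudocount exceeds their levels in LINC00862, log2 fold changes were -3.72 for TGFB1, -3.16 for TGFB2 and -1.12 for TGFBR3. The replicate block left 12098 genes and 7 members called and changed no call on a member. Whether libraries with the same replicate number were prepared together was not given in the sources used here. The correlations of same-numbered deviations were -0.0489, -0.0254 and -0.0074, which show no sign of pairing but cannot exclude it. Upper-quartile and library-size scaling moved the median over the tested genes from a log2 fold change of 0.11 to 0.32 and -0.05, and the share of calls that were higher from 53.6% to 60.4% and 48.5%. Of 224 list counts recomputed, 196 were within 1.5 times the count reported and 28 were not: genes higher were 3 instead of 5 in the latent complex list, 1 instead of 3 among antagonists and 0 or 2 instead of 1 among SMAD partners, and genes lower were 2 instead of 4 among targets of bone morphogenetic proteins. Counts of 17 to 25 limit the precision for TGFBR3 in LINC00862, and counts of 34 to 92 that for INHBA.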

Other observations

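TGFB2-AS1, an antisense RNA of TGFB2, had 16, 0 and 3 counts in Empty and 0 counts in the LINC00862 libraries, too few to be tested. For the genes on the strand opposite TGFB1, log2 fold changes were -0.56 for HNRNPUL1, 0.56 for CCDC97 and -1.02 for TMEM91 (edgeR adjusted p = 0.00918, 0.0187 and 0.0383). IFT43, opposite TGFB3, had a log2 fold change of -0.25 and did not pass the test (edgeR adjusted p = 0.46).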
